A study of Mus musculus with 12 samples.

Results

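Gene expression in the livers of Sirt2 knockout (KO) mice was compared with that of wild-type (WT) mice after both had been injected with plasmids for MET and an activated beta-catenin (MET/CAT). The comparison took the 3 KO MET/CAT and the 3 WT MET/CAT libraries, chosen by their titles, of 12 libraries in all, and covered the 13871 of 47263 genes with at least 10 normalized reads in at least 3 of the 12. Each MET/CAT mouse was injected at 6 to 8 weeks of age, rapidly and under pressure through the lateral tail vein, with 50 µg of plasmid in all. The mixture held 22.5 µg of pT3-EF1a-c-MET, 22.5 µg of pT3-EF1a-DN90-β-Catenin and 5 µg of HSB2, which supplies the sleeping beauty transposase. Whole livers were taken 8 weeks after injection from mice on a standard diet. The KO mice are labelled as a Sirt2 liver knockout, and the sources used here do not give the Cre driver or the deleted exons. The other 6 libraries were 3 WT and 3 KO livers given a GFP plasmid. Those mice were also injected at 6 to 8 weeks of age, and their livers were taken 8 weeks later. These libraries contributed to the estimate of spread for each gene and to a test of whether a KO to WT difference depended on the plasmid.

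SIRT2 is an NAD-dependent deacetylase found mainly in the cytoplasm, where its known substrates include alpha-tubulin, FOXO factors and metabolic enzymes. MET is the receptor tyrosine kinase for hepatocyte growth factor, and beta-catenin is the transcriptional effector of canonical Wnt signalling. In this model the transposase inserts the oncogene cassettes into the genome of the hepatocytes that take up plasmid, and beta-catenin without its amino terminus escapes degradation, so that tumours grow among hepatocytes that took up none. A whole-liver library therefore holds tumour cells, other hepatocytes and the non-parenchymal cells.

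The groups follow the titles. The treatment field of the labels follows the genotype instead, giving GFP for the WT MET/CAT libraries, and so contradicts their titles. Whether each replicate came from its own mouse is not spelled out in the labels, and the p-values then measure the spread between these libraries, which may be technical. The 6 libraries held 18208879 to 24352961 reads, with 1 read worth 0.997 to 1.204 normalized reads, and no replicate pair agreed within sampling noise. Levels below are normalized reads per library, and differences are KO minus WT on the log2(value + 1) scale.

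Sirt2 (ENSMUSG00000015149, GRCm38 chromosome 7, 28766735 to 28788661) was the only gene that passed the test. The WT MET/CAT libraries had 1068, 942.7 and 908.4 normalized reads and the KO MET/CAT libraries 248.1, 234.3 and 200.6. The groups were far apart, and the KO mean was 23.4% of the WT mean, beside 21.9% in the GFP livers. The difference was −2.09 (SE 0.23, limma adjusted p = 0.00394, lower in 3 of 3 KO libraries). It differed from that in GFP livers by 0.13 (limma interaction, unadjusted p = 0.687 across all genes fitted). Without KO MET/CAT replicate 3 the difference was −2.005 and the adjusted p 0.0524. Exons were not counted separately. In whole-liver RNA a smaller number of expressing cells cannot be told apart from less RNA per cell.

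Genes around the Sirt2 locus were not called. Of 24 annotated genes within 200 kb, 13 were measured, 3 with higher and 10 with lower values. Actn4, an actin crosslinker, had the smallest p (−0.84, unadjusted p = 0.0213, adjusted p = 0.59), and all 3 KO libraries lay below the WT libraries. Nfkbib, an inhibitor of NF-kappa-B, overlaps the start of Sirt2 on the opposite strand and differed by −0.18 (SE 0.35). The strand setting of the counting is not given, and reads in the overlap cannot be assigned to either gene.

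The other sirtuins, deacylases of the same family in the nucleus, cytoplasm and mitochondria, were not called. Sirt6, a nuclear family member, had 101.7, 81.2 and 81.2 normalized reads in WT and 21.7, 33.5 and 58.4 in KO MET/CAT libraries. The KO libraries were all below the WT libraries, and the difference of −1.30 (SE 0.38) had an adjusted p of 0.496 by limma. Sirt7, the nucleolar member, differed by 0.52 (SE 0.25), and Sirt1, Sirt3, Sirt4 and Sirt5 by −0.13 to 0.37, each with overlapping groups. Among 16 measured genes of tubulin, its acetylation and the cytoskeleton, the median difference was 0.06, and no member's groups were separate. Leaving out 1 library moved that median between −0.16 (without WT replicate 2) and 0.24 (without WT replicate 1).

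Beyond Sirt2, no gene reached an adjusted p under 0.05, and the next smallest value was 0.495. limma thus called 0 genes higher and 1 lower (0.00721% of 13871), and edgeR on the recovered reads called the same numbers. DESeq2 called 8 higher (0.0577%) and 26 lower (0.187%), with no adjusted p for 1360 genes. An unadjusted p under 0.05 was found for 1076 genes (7.76%), 477 higher (3.44%) and 599 lower (4.32%). All 3 KO values lay below all 3 WT values in 973 genes (7.01%) and above them in 946 genes (6.82%). Of all genes 49.7% had higher and 50.3% lower values in KO, and 8.62% differed by over 1 log2 unit. The median difference was −0.0019, with 5% to 95% of genes between −0.995 and 0.859. Genes described in the following paragraphs are given by their values and did not pass the test.

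The test of whether KO to WT differences depended on the plasmid called 0 of 13871 genes by limma and 0 by edgeR. At an unadjusted p under 0.05 the counts were 2153 (15.5%) and 2176 (15.7%). With the replicate number as a block, 2 genes were called, Etfb and Gm47283. KO GFP replicate 3 stood apart from the other 11 libraries, and without it 2 other genes were called and 1374 (9.91%) had an unadjusted p under 0.05. These were Ddt and Trf, the iron carrier transferrin, which had higher values in KO MET/CAT (0.97 and 1.12) and lower values in KO GFP livers (−2.96 and −2.51 with all libraries). All 4 were named after their values were seen.

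The 12 lower genes with the smallest p, a mean of at least 100 and no overlap between groups are listed here by function. Sirt2 was followed by mt-Co2 and mt-Co3, cytochrome c oxidase subunits encoded in mitochondrial DNA, by Zbp1 and Ifit3 of the interferon response, and by Sec61a1, the pore subunit of the channel through which proteins enter the endoplasmic reticulum. The rest were mt-Tp, the mitochondrial proline transfer RNA, Sall1, a zinc finger transcription factor, Trim12c, Srsf4, a splicing factor, Ccdc86 and Lrrc41. Apart from Sirt2, their differences lay between −1.48 and −0.92, all with an adjusted p of 0.495 by limma. DESeq2 gave every one of these 11 an adjusted p under 0.05, from 0.00349 for mt-Co2 to 0.0416 for Lrrc41.

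Sec61a1 had lower values in KO MET/CAT and higher values in KO GFP livers. Its WT MET/CAT libraries had 2205, 1906 and 2487 normalized reads and its KO MET/CAT libraries 1375, 977.1 and 1159. The highest KO library was below the lowest WT library, with a difference of −0.92 (SE 0.18), whereas KO minus WT in GFP livers was 0.45. The interaction was −1.37 (SE 0.26, unadjusted p = 0.000135, limma adjusted p = 0.19). The other 29 measured genes of the translocon, signal peptidase and associated machinery are given by count alone. The whole list of 30 had 15 higher and 15 lower members and a median of 0.00050, from −0.11 to 0.097 when 1 library was left out.

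The 12 higher genes chosen in the same way were Fbf1, Csrnp1, Samd1, Pgap1, Taf5, Sae1, Bhlhe40, Ip6k2, Gmnn, Trp53i13, Sgpp1 and Cks1b. They cover cell division (Cks1b, a cyclin-dependent kinase subunit, and Gmnn, or geminin, which restrains replication licensing), transcription (Taf5 of TFIID), SUMO conjugation (Sae1, a subunit of the activating enzyme) and lipid signalling (Sgpp1, a sphingosine-1-phosphate phosphatase). Fbf1, a protein of the ciliary transition fibres, had 74.8, 110.7 and 70.0 normalized reads in WT and 174.6, 286.7 and 389.6 in KO MET/CAT libraries. Its 3 KO values exceeded the WT values, with a difference of 1.68 (SE 0.39, limma adjusted p = 0.495). The differences of the 12 genes lay between 0.64 and 1.68. For Fbf1, Csrnp1 and Samd1 the adjusted p of DESeq2 was 0.0171, 0.0127 and 0.0254.

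**Figure D1:**
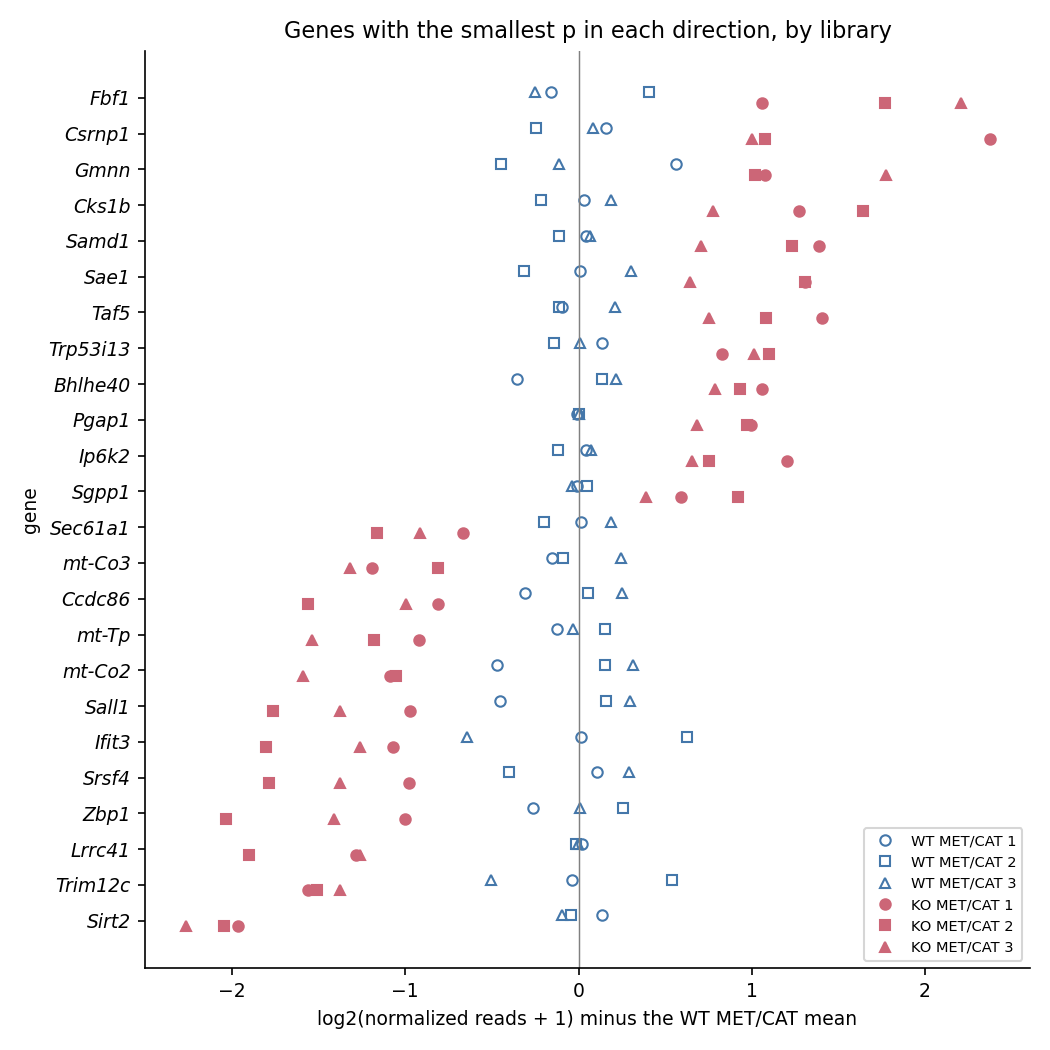
Level of the 24 genes with the smallest p in each direction in the 6 MET/CAT libraries, as log2(normalized reads + 1) minus the mean of the 3 WT MET/CAT libraries. Open blue symbols are WT and filled red symbols KO libraries, and the symbol shape gives the replicate. The groups are separate in every gene because the genes were chosen for that, and Sirt2, at −2.09, lies farthest to the left by its mean.

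Interferon-induced genes are switched on when interferons activate transcription factors that bind a DNA element called the interferon-stimulated response element (ISRE). Its core, TTCNNTTTC or its reverse complement, was searched in RefSeq promoters of GRCm38.p6, running from 250 bases before to 50 after each gene's start. Of the 44 measured interferon response genes, 32 had a promoter in the reference table and 17 of them held the core (53.1%), beside 9.76% of all 27025 genes with a promoter. Counted by promoter, it was in 18 of 38 of the list and in 8.56% of all 32851. The stretches upstream of Ifit3, Isg15 and Rsad2 are shown, with the matches in capitals. The candidates for display were these 3 genes, Zbp1, Usp18 and Oasl2, and the last 3 had no printable entry in the reference table. Nothing is said here of whether their promoters hold the core. Other list members with matches, such as Ifit1, were not candidates. Ifit3 is read on the plus strand from chr19:34583344-34583465, Isg15 on the minus strand from chr4:156200846-156200926, where 3 matches overlap, and Rsad2 on the minus strand from chr12:26456533-26456601.
Ifit3: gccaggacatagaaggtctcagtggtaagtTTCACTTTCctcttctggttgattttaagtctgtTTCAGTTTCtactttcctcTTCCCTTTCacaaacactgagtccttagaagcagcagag
Isg15: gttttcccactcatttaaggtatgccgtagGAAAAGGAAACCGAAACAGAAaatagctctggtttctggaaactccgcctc
Rsad2: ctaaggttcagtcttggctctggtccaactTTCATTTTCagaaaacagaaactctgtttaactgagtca
These matches describe letters in the reference genome and say nothing of binding in these livers.

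The interferon response list had lower values in KO MET/CAT livers for 37 of its 44 measured members and higher values for 7, with none called (0.00721% of all genes were). In 18 members (40.9%) the KO libraries all lay below the WT libraries, beside 7.01% of all genes, and in 2 (4.55%) above them, beside 6.82%. The unadjusted p was under 0.05 for 22 lower and 0 higher members (4.32% and 3.44% of all genes), and the median difference was −0.63. The median ranged from −0.76 to −0.48 when 1 library was left out, and was nearest to 0 without WT MET/CAT replicate 2, the MET/CAT library with the highest mean deviation of the list. By summed level KO replicate 2 (31155) was just above it (31081). Without that library 34 members were lower, and 18 (40.9%) were separate and lower beside 10.1% of all genes. In the GFP livers the median was −0.54, also with 37 members lower. The interaction had an unadjusted p under 0.05 for 8 members (15.5% of all genes had one).

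Zbp1 (chromosome 2, 173206612 to 173218923), a sensor of Z-form nucleic acids that can trigger necroptosis, had the smallest p of the list. It had 295.0, 423.9 and 356.9 normalized reads in WT and 177.0, 85.8 and 132.7 in KO MET/CAT libraries. Every KO library was below the lowest WT library, and the difference was −1.48 (SE 0.28, limma adjusted p = 0.495).

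The Ifit genes, clustered on chromosome 19, encode proteins that bind foreign RNA. Ifit3 (34583531 to 34588731) had 553.2, 843.6 and 350.2 normalized reads in WT and 260.1, 155.9 and 227.2 in KO MET/CAT libraries. The groups did not overlap, and the difference was −1.38 (SE 0.29, limma adjusted p = 0.495). Ifit1 had 796.4, 2116 and 584.8 in WT and 502.1, 349.4 and 261.1 in KO MET/CAT libraries, a difference of −1.47. Ifit2 (−1.89) and Ifit3b (−1.55) were separate in the same direction. Reads may be shared between Ifit3b and its close copy Ifit3, so their values are uncertain and not independent.

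Isg15, a ubiquitin-like protein joined to other proteins during the response, had 919.0, 797.2 and 485.9 normalized reads in WT and 328.7, 322.2 and 422.5 in KO MET/CAT libraries. The difference was −0.995 (SE 0.25) with separate groups. Usp18, which removes ISG15 and dampens receptor signalling, differed by −0.71. Rsad2, or viperin, an antiviral radical enzyme, had 288.1, 230.9 and 247.9 in WT and 219.2, 68.0 and 110.4 in KO MET/CAT libraries, a difference of −1.10. Its KO replicate 1 was close to the WT range and the others far below it. Lgals3bp, a secreted glycoprotein, had the tightest groups, with 1248, 1158 and 1273 in WT and 747.8, 817.1 and 774.9 in KO livers (−0.65, SE 0.16).

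Irf7, which amplifies type I interferon, had overlapping groups and a difference of −0.18. Bst2, or tetherin, which holds budding virions at the cell surface, went the other way. It had 9434, 6560 and 7436 in WT and 10369, 17784 and 10330 in KO MET/CAT libraries, a difference of 0.68 with KO above WT in every library, and −0.84 in GFP livers.

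**Figure D2:**
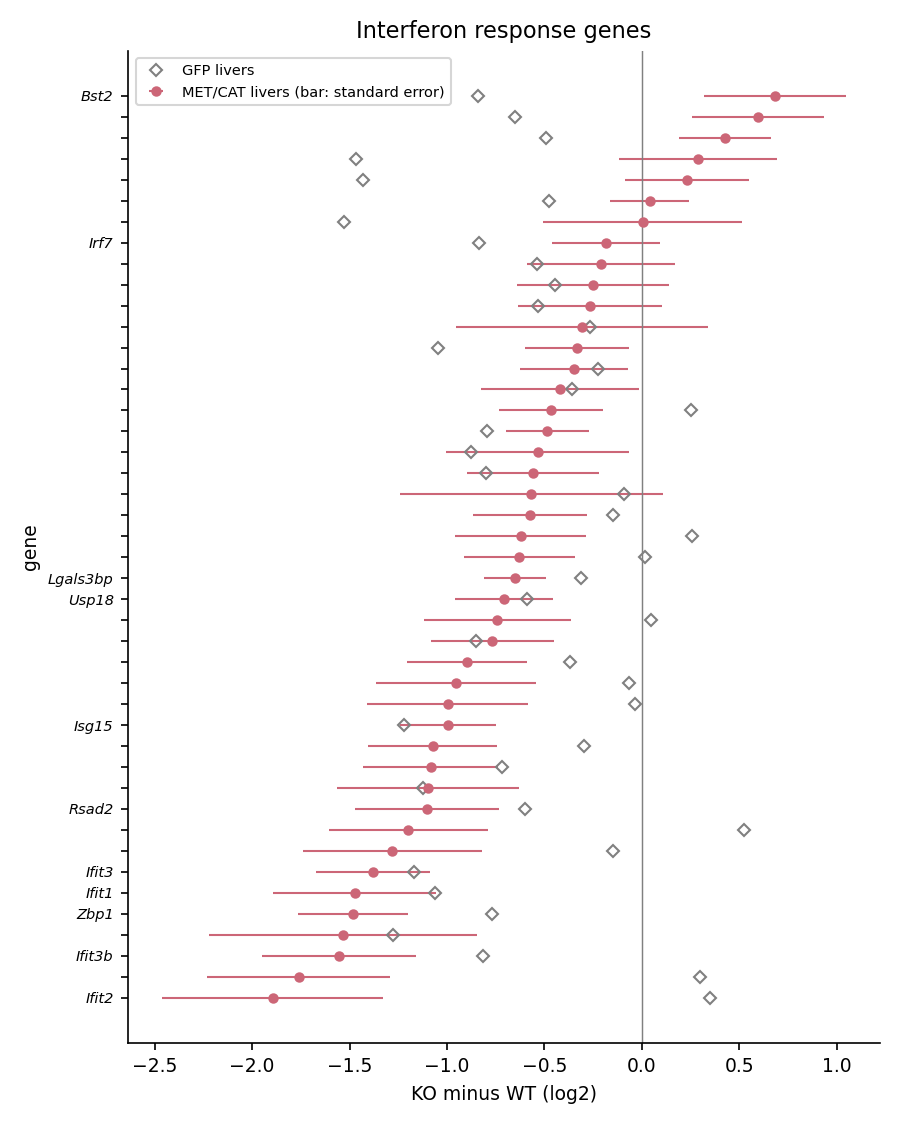
KO minus WT difference (log2) of the 44 measured interferon response genes. Red points with standard error bars are MET/CAT livers and grey diamonds GFP livers, and names are given for members described in the text. Of the red points, 37 lie left of 0, and the median is −0.63.

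Upstream of these genes, the interferon receptors and nucleic acid sensors had lower values in 18 of 21 measured members (median −0.40), and 2 were separate and lower (9.52%, beside 7.01% of all genes). Without WT replicate 1 the median was −0.68 and 11 were separate and lower (52.4%, beside 15.8% of all genes), and without KO replicate 1 the values were −0.60 and 7 (33.3%, beside 13.9%). Without WT replicate 2 the median was −0.22 and without KO replicate 2 it was −0.25. With replicate 2 or 3 of either group left out, 2 or 3 were separate and lower (9.52% or 14.3%, beside 10.02% to 12.4% of all genes). Tyk2, a kinase bound to the type I interferon receptor, had 372.8, 489.3 and 331.3 normalized reads in WT and 175.8, 247.9 and 287.7 in KO MET/CAT libraries. The groups were separate, with a difference of −0.75 (SE 0.26). Ifngr1, the ligand-binding chain of the interferon gamma receptor, differed by −0.53, and Mavs, the mitochondrial adaptor of RNA sensors, by 0.22. Ifng itself had no read in any MET/CAT library, and a count of 0 allows up to 2.99 to 3.61 normalized reads per library.

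GTPases induced mainly by interferon gamma attack the membranes around intracellular pathogens. Their list also counted genes that are not GTPases, among them Cxcl10 and Irf1. The list had lower values in 18 of 20 measured members, with a median of −1.26. Gbp7 and Gbp8, 2 of the 20 (10%, beside 7.01% of all genes), had separate groups. Irgm1 had 829.3, 1862 and 1627 normalized reads in WT and 928.4, 568.1 and 613.5 in KO MET/CAT libraries (−0.98, SE 0.29). Ifi47 had 421.6, 3519 and 1800 in WT and 640.6, 257.4 and 330.1 in KO libraries (−1.87, SE 0.58). In both genes KO replicate 1 exceeded WT replicate 1. For the whole list the mean deviation from the 12-library mean was 0.0030, 2.46 and 1.14 in WT and 1.05, −0.99 and −0.52 in KO MET/CAT libraries. Without WT MET/CAT replicate 2 the median was −0.74. With WT replicate 1 left out 13 members were separate and lower (15.8% of all genes were), and with KO replicate 1 left out also 13 (13.9%). With any other library left out it was 2 or 3 (10% or 15%, beside 10.02% to 12.4% of all genes).

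The chemokine Cxcl10 and the factor Irf1, counted in the same list, varied widely among the livers. Cxcl10 had 62.8, 3217 and 393.6 normalized reads in WT and 13056, 79.5 and 64.8 in KO MET/CAT libraries. Irf1 had 529.3, 1129 and 296.9 in WT and 7684, 547.1 and 461.7 in KO libraries. Both were highest in KO replicate 1, and the other KO libraries lay within the WT range.

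Mitochondrial DNA encodes 13 subunits of the respiratory chain and ATP synthase, and its long transcripts are cut into messenger, ribosomal and transfer RNAs. All 13 messenger RNAs had lower values in KO than in WT MET/CAT livers. In 12 the groups did not overlap (7.01% of all genes were separate and lower), and none was called. The median difference was −0.98 and ranged from −1.12 to −0.88 when any 1 library was left out. Between −1.09 and −0.90, it kept its sign with equal library totals, quantile normalization, removal of the trend with exon length, edgeR and DESeq2. The 13 come from shared precursors and are not independent of each other. In GFP livers their median was −0.21 (−0.12 without KO GFP replicate 3), and 5 of 13 members had an unadjusted interaction p under 0.05 (15.5% of all genes had one). Without KO GFP replicate 3 it was also 5 (38.5%, beside 9.91% of all genes).

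By complex, the cytochrome c oxidase subunits were mt-Co1, mt-Co2 and mt-Co3. mt-Co2 (mitochondrial genome, 7013 to 7696) had 1361, 2093 and 2342 normalized reads in WT and 883.9, 907.0 and 623.1 in KO MET/CAT libraries. The difference was −1.25 (SE 0.24, limma adjusted p = 0.495), and it passed the test with library quality weights (adjusted p = 0.0323) and without WT MET/CAT replicate 1 (adjusted p = 0.0326). mt-Co1 had 203990, 353100 and 299870 in WT and 171020, 92281 and 114890 in KO libraries (−1.19, SE 0.40). mt-Co3 differed by −1.11 (SE 0.22). The KO libraries were below the WT libraries in all 3 genes. Nuclear copies of mitochondrial sequence may share reads with these genes, and their levels are uncertain to that extent.

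Of the complex I subunits, mt-Nd4 had 88135, 134720 and 112040 normalized reads in WT and 64922, 41371 and 38496 in KO MET/CAT libraries. The groups were separate, and the difference was −1.23 (SE 0.31). mt-Nd1 differed by −0.91 and mt-Nd2 by −0.83. mt-Nd6, the single messenger encoded on the other strand, differed by −0.52, the smallest difference of the 13. mt-Cytb of complex III differed by −0.98 and mt-Atp6 of ATP synthase by −0.91. The overlapping groups were those of mt-Nd5, at −0.59.

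Mitochondrially encoded genes together took 3.36%, 5.83% and 4.41% of the reads in WT and 3.03%, 2.21% and 2.11% in KO MET/CAT libraries. Every KO share was below every WT share, and the means differed by −2.08 percentage points. The exact two-sided permutation test of 3 against 3 gave p = 0.1, the smallest p this design allows. The messenger RNAs accounted for −2.003 points of it. In GFP livers the KO mean was 0.46 points higher (exact permutation p = 0.4, n = 3 per group), with overlapping groups. The shares there were 2.33%, 1.76% and 3.68% in WT and 2.98%, 2.47% and 3.72% in KO libraries. KO GFP replicate 3, which stood apart, was the highest and had 0.92% of its reads in mitochondrial ribosomal RNAs. The other GFP libraries had 0.19% to 0.29%. In MET/CAT livers the ribosomal RNAs mt-Rnr1 and mt-Rnr2 had overlapping groups, with differences of −0.50 (SE 0.42) and −0.35 (SE 0.44).

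**Figure D3:**
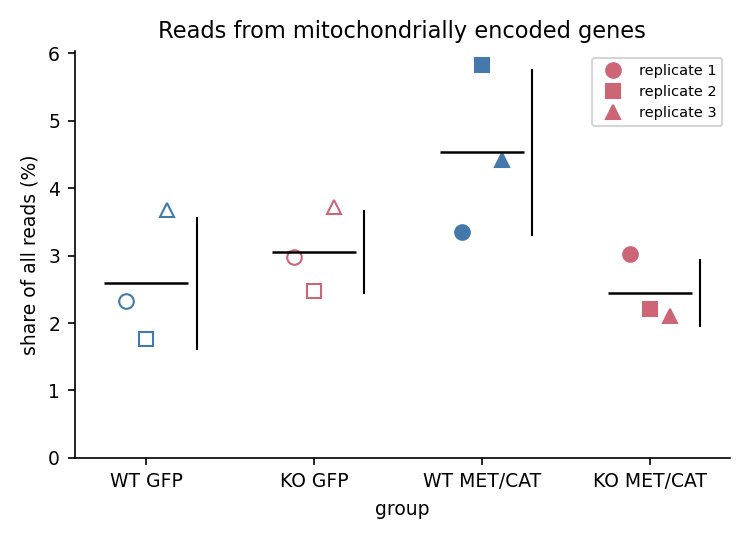
Share of all reads from mitochondrially encoded genes in each of the 12 libraries (%). Symbols are libraries with their replicate number as shape, blue for WT and red for KO, open for GFP and filled for MET/CAT. Horizontal lines are group means and vertical lines SD (n = 3), and the KO MET/CAT shares of 2.11% to 3.03% lie below the WT MET/CAT shares of 3.36% to 5.83%.

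Nuclear genes of the same respiratory complexes mostly had higher values in KO MET/CAT livers. Of 36 measured complex I subunits, 34 did (median 0.36), and in 4 the groups were separate and higher (6.82% of all genes were). The medians were 0.29 for complexes II and III with cytochrome c (13 of 14 higher), 0.43 for complex IV (11 of 13 higher) and 0.27 for ATP synthase (14 of 15 higher). Ndufb3, a membrane-arm subunit of complex I, had 1369, 1033 and 1013 normalized reads in WT and 1587, 2058 and 1698 in KO MET/CAT libraries (0.65, SE 0.27). Cox6b1, a small subunit at the interface of the complex IV dimer, had 8522, 4232 and 6212 in WT and 9502, 15711 and 10453 in KO libraries (0.93, SE 0.46). Both had KO above WT in every library. Tfam, which packages mitochondrial DNA and starts its transcription, differed by 0.26 (SE 0.17), and the 26 measured genes of mitochondrial DNA and RNA maintenance had a median of 0.015 (−0.019 to 0.11 when 1 library was left out).

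These nuclear lists varied between replicates along with the cytosolic ribosomal proteins. The 43 measured ribosomal protein genes had a median of 0.28, with 37 higher and 3 separate and higher (6.98%, close to the 6.82% of all genes). Without WT replicate 1 the ribosomal median was 0.44 and 33 were separate and higher (76.7%, beside 18.1% of all genes). The median was 0.17 without WT replicate 3 and without KO replicate 2. With any library but WT replicate 1 left out, 3 to 7 were separate and higher (9.55% to 12.6% of all genes). Complex I subunits had mean deviations of 0.29, −0.30 and −0.31 in WT and 0.04, 0.50 and 0.10 in KO MET/CAT libraries, so that WT replicate 1 lay above KO replicates 1 and 3. With any other library left out, 4 to 6 of the 36 were separate and higher (9.55% to 12.6% of all genes). Without WT replicate 1 it was 32 (88.9%, beside 18.1% of all genes), and the median was 0.56. It was 0.20 without KO replicate 2 and 0.23 without WT replicate 3. With all libraries, 1 of 14 genes of complexes II and III and 1 of 15 of ATP synthase were separate and higher. In complex IV it was 3 of 13 (23.1%, beside 6.82% of all genes). Without WT replicate 1 these counts were 10, 12 and 11 in the same order (18.1% of all genes). With any other library left out they were 1 to 3, 1 to 2 and 3 to 4 (9.55% to 12.6% of all genes). The ATP synthase median was 0.58 without WT replicate 1, 0.073 without WT replicate 2, 0.15 without WT replicate 3 and 0.064 without KO replicate 2. The correlation of a library's deviations with exon length (Spearman rho over genes, which are not independent) was −0.21, 0.17 and 0.11 in WT and 0.015, −0.24 and −0.15 in KO libraries. Its part in the result was not tested, and with the length trend removed the complex I median was 0.25. In GFP livers the KO minus WT medians were −0.64 for complex I and −0.59 for ribosomal proteins. Complex I deviations there were 0.24, 0.64 and 0.02 in WT and −0.17, 0.10 and −1.14 in KO libraries. Without KO GFP replicate 3, the lowest, the medians were −0.31 and −0.29. The interaction had an unadjusted p under 0.05 for 22 of 36 complex I and 22 of 43 ribosomal protein genes (15.5% of all genes), and the smallest adjusted p in these lists was 0.226. Without KO GFP replicate 3 the counts were 13 and 13 (9.91% of all genes).

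Cholesterol synthesis runs from acetyl-CoA through mevalonate, squalene and lanosterol, and the factor SREBP2 drives most of its genes. Of 26 measured genes, 25 had lower values in KO MET/CAT livers, with a median of −0.44. The groups were separate and lower in 2 (7.69%, near the 7.01% of all genes), and none was called. Without WT replicate 3 or without KO replicate 3 it was 10 (38.5%, beside 12.2% and 12.4% of all genes), and without WT replicate 1 it was 5 (19.2%, beside 15.8%). It was 2 (7.69%) without WT replicate 2 and without KO replicate 1, beside 10.08% and 13.9% of all genes. Without KO replicate 2 it was 3 (11.5%, beside 10.02%). Lss, which closes the lanosterol ring system, had 1496, 1848 and 1008 normalized reads in WT and 268.5, 492.8 and 892.7 in KO MET/CAT libraries. Its groups did not overlap, and the difference was −1.52 (SE 0.45). Hmgcs1, at the entry of the pathway, had 11572, 16525 and 5496 in WT and 2611, 4108 and 7796 in KO libraries (−1.22, SE 0.64). WT replicate 3 and KO replicate 3 crossed for Hmgcs1.

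Among later enzymes, Nsdhl differed by −0.89, Sqle by −0.90 and Dhcr7 by −0.83, with overlapping groups. Srebf2, which encodes SREBP2, differed by −0.46. The list was lowest in KO replicate 1, with a mean deviation of −1.14, while KO replicates 2 and 3 were at −0.41 and −0.0092. Without that library the median was −0.20 with 19 members lower, and without WT replicate 3 it was −0.73. In GFP livers the median was −0.0060, and −0.23 without KO GFP replicate 3. The core TCACNCCAC of the sterol regulatory element, searched on both strands, occurred in the promoter of Hmgcs1 among 18 genes with an entry (5.56%, beside 1.44% of all genes).

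Immediate early genes are transcribed within minutes of a stimulus without new protein synthesis, and include AP-1 factors and RNA-decay regulators. Of 26 measured, 22 had higher values in KO MET/CAT livers (median 0.97), and 3 were separate and higher (6.82% of all genes were). KO replicate 1 had the highest level of the list. Its mean deviation was 1.84, KO replicates 2 and 3 were at 0.37 and 0.16, and the WT values ran from −0.04 to 0.15. Without it the median was 0.27, with 16 members higher and 3 separate and higher (11.5%, no more than the 12.6% of all genes), and without WT replicate 1 it was 0.52. The separate and higher members were 7 (26.9%) without WT replicate 1 and without WT replicate 3 (18.1% and 10.97% of all genes), and 5 (19.2%) without WT replicate 2 and without KO replicate 3 (9.55% and 11.1%). They were 4 (15.4%, beside 10.4%) without KO replicate 2.

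Junb, an AP-1 subunit, had 1669, 625.3 and 209.0 normalized reads in WT and 8095, 1903 and 1146 in KO MET/CAT libraries (2.11, SE 0.71). KO replicate 3 fell within the WT range. Zfp36, or tristetraprolin, which marks cytokine messenger RNAs for decay, had 646.9, 437.6 and 1170 in WT and 6194, 1135 and 1396 in KO libraries (1.63, SE 0.52), and KO replicate 2 lay below the highest WT library. Gadd45g, a stress-response protein, had 567.1, 132.9 and 1470 in WT and 5597, 2639 and 4069 in KO libraries. Its groups were separate and the difference was 3.02 (SE 0.96). Klf10, a zinc finger factor induced by TGF-beta, was even among KO livers, with 227.6, 240.6 and 265.4 against 198.4, 67.5 and 93.4 in WT (1.17, SE 0.33). Fos differed by 1.68, Jun by 1.02, Egr1 by 0.997, Atf3 by 0.35 and Myc by 0.30, each with overlapping groups.

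KO replicate 1 also had the highest neutrophil marker level, with a mean deviation of 2.93 against 0.42 to 1.54 in the other 5 MET/CAT libraries. S100a9, an abundant neutrophil protein, had 137.6, 497.7 and 308.0 normalized reads in WT and 1616, 197.7 and 303.6 in KO MET/CAT libraries. Of 16 neutrophil markers 13 were measured, and Ly6g and Elane were among those that did not pass the filter. Ly6g was listed at 0 in 4 of the 6 libraries. The summed level of the 13 ran from 1182 to 12421 normalized reads in WT libraries and from 2405 to 11703 in KO libraries, so by the sum WT replicate 3 was highest. The part of these cells in the immediate early result was not tested. Igfbp1, a hepatocyte-secreted target of FOXO1 that binds insulin-like growth factors, was also highest in that library. It had 1043, 675.9 and 1090 in WT and 19616, 2562 and 4007 in KO libraries (2.68, SE 0.86). Even the lowest KO value exceeded the WT values. Irs2, an insulin receptor substrate also under FOXO control, had 50.8, 135.0 and 82.3 in WT and 681.6, 146.5 and 155.0 in KO libraries (1.58, SE 0.75), again with separate groups. The 21 measured genes of gluconeogenesis, glycogen and FOXO targets had a median of 0.06 (−0.035 to 0.18 when 1 library was left out), and Pck1 differed by 0.31 with overlapping groups.

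The circadian clock is a loop in which CLOCK and ARNTL drive their own repressors, and liver levels depend on the hour of collection, an item the sources used here do not give. Of 20 measured clock genes, 16 had higher values in KO MET/CAT livers (median 0.46), and 4 (Bhlhe40, Usp2, Cry2 and Hlf) were separate and higher (20% of the list, 6.82% of all genes). There were 7 (35%, beside 11.1% of all genes) without KO replicate 3. With any other library left out there were 4 to 6 (20% to 30%, beside 9.55% to 18.1% of all genes). Usp2, a rhythmic deubiquitinase, had 681.8, 182.4 and 335.8 normalized reads in WT and 1214, 1557 and 847.1 in KO MET/CAT libraries (1.75, SE 0.49). Bhlhe40, a repressor of CLOCK and ARNTL, had 936.9, 1318 and 1393 in WT and 2496, 2288 and 2073 in KO libraries (0.93, SE 0.24). The strongly rhythmic genes varied widely within groups. Dbp had 68.8, 648.5 and 20.01 in WT and 75.9, 15.7 and 515.9 in KO libraries (−0.17, SE 1.11). Nr1d1 had 543.2, 1096 and 133.4 in WT and 48.2, 73.2 and 364.1 in KO libraries (−1.97, SE 0.79). WT replicate 2 and KO replicate 3 were the highest of their groups for both genes, and the part of collection time was not tested.

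**Figure D4:**
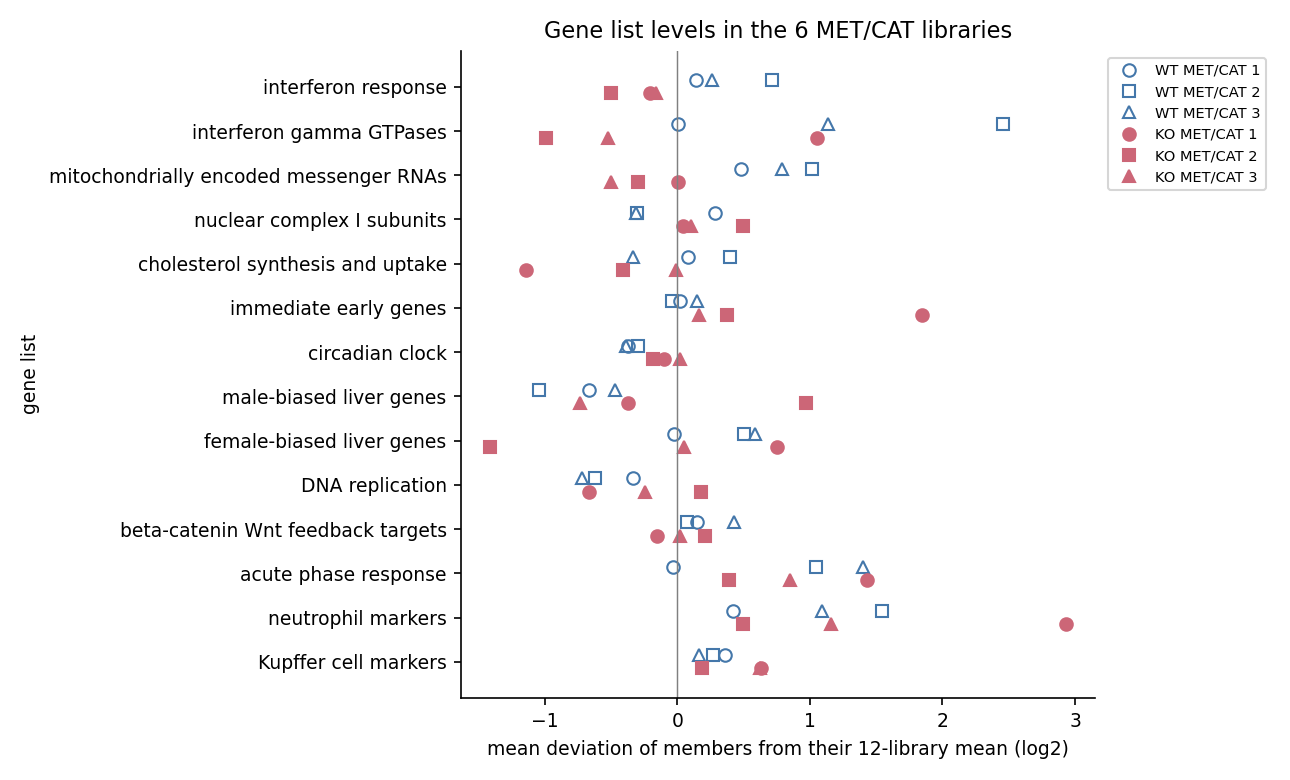
Level of 14 gene lists in the 6 MET/CAT libraries, as the mean over members of the deviation (log2) from each gene's 12-library mean. Open blue symbols are WT and filled red symbols KO libraries, with the shape giving the replicate. The mitochondrially encoded messenger RNAs, the interferon response, the clock and, by a small margin, the immediate early genes have separate groups, and KO MET/CAT replicate 1 is highest for the immediate early (1.84) and neutrophil (2.93) lists.

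The genes of the injected oncogenes and their targets showed no called difference between KO and WT. Met had 705.7, 959.6 and 626.0 normalized reads in WT and 814.0, 582.7 and 775.9 in KO MET/CAT libraries (−0.07, SE 0.23). Ctnnb1, which encodes beta-catenin, had 1217, 2341 and 2072 in WT and 2187, 1125 and 1555 in KO libraries (−0.21). Whether reads of the plasmid copies map to these mouse genes was not tested. Glul, glutamine synthetase and a beta-catenin target of pericentral hepatocytes, had 59596, 36972 and 63360 in WT and 67363, 85906 and 38360 in KO libraries (0.22, SE 0.30). The groups overlapped in all 3 genes, and each difference changed sign when 1 library was left out.

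Axin2, a feedback inhibitor that beta-catenin induces, had 160.5, 159.2 and 202.3 normalized reads in WT and 84.3, 171.6 and 90.2 in KO MET/CAT libraries (−0.66, SE 0.37). KO replicate 2 lay within the WT range and the others below it. The 15 measured Wnt feedback targets had a median of −0.34, with 10 lower, and 1 separate and lower (6.67%, close to the 7.01% of all genes). Without KO replicate 2 the median was −0.21 and 5 were separate and lower (33.3%, beside 10.02% of all genes), and without KO replicate 3 it was 3 (20%, beside 12.4%). With any other library left out it was 2 (13.3%, beside 10.08% to 15.8% of all genes). Lgr5, a Wnt-dependent receptor, differed by 0.01, Notum, which inactivates Wnt ligands, by 0.47, and Ccnd1, or cyclin D1, by −0.87. The 20 measured pericentral genes had a median of −0.15, whose sign was not kept. It was 0.092 without KO replicate 3, 0.080 without WT replicate 1 and −0.37 without WT replicate 2, where 19 of 20 were lower, and −0.28 and −0.25 without KO replicates 1 and 2. Cyp7a1, the rate-limiting enzyme of bile acid synthesis and a pericentral gene, had 757.5, 1408 and 1273 in WT and 513.0, 782.5 and 476.6 in KO libraries (−0.94, SE 0.41), with overlapping groups. In GFP livers it differed by 1.39 (interaction unadjusted p = 0.00124, limma adjusted p = 0.265).

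MET signals through adaptors such as GAB1 and SHC1 to the ERK kinases, which induce their own inhibitors. The 26 measured genes of this group had a median of 0.01, with 14 higher and 12 lower, and of −0.11 to 0.095 when 1 library was left out. Shc1 had 639.9, 944.8 and 766.0 normalized reads in WT and 538.3, 366.2 and 578.5 in KO MET/CAT libraries (−0.67, SE 0.24), with separate groups. Gab1 had 188.4, 120.2 and 101.2 in WT and 257.7, 286.6 and 183.6 in KO libraries (0.85, SE 0.28), where 1 KO value lay below the highest WT value. Spry4, an ERK feedback inhibitor, differed by 1.41 and Phlda1 by 1.68, with overlapping groups.

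Oncofetal and tumour-associated liver genes had lower values in 13 of 18 measured members (median −0.31), and 3 were separate and lower (16.7% of the list, 7.01% of all genes). The median was −0.61 without WT replicate 2, −0.49 without KO replicate 1, −0.17 without WT replicate 1 and −0.14 without KO replicate 3. Without KO replicate 1, 6 were separate and lower (33.3%, beside 13.9% of all genes). With any other library left out it was 3 or 4 (16.7% or 22.2%, beside 10.02% to 15.8% of all genes). Igf2, a fetal growth factor, had 48.8, 24.3 and 46.7 normalized reads in WT and 18.1, 8.4 and 9.6 in KO MET/CAT libraries (−1.66, SE 0.51). Tff3, a secreted trefoil peptide, had 156.5, 64.3 and 72.3 in WT and 14.4, 16.7 and 46.7 in KO libraries (−1.95, SE 0.70). In GFP livers Tff3 differed by 2.23 (interaction −4.18, SE 0.99, unadjusted p = 0.000862, limma adjusted p = 0.265). Golm1, a Golgi protein raised in liver tumours, differed by −0.66 with separate groups. Gpc3, a fetal glypican, differed by −0.46 and H19, an imprinted fetal RNA, by −0.80, both overlapping. Akr1b8, an aldo-keto reductase, was separate and higher (0.87, SE 0.39). Igf2bp3, Lin28b and Hmga2 did not pass the filter on low values.

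Of 28 measured DNA replication genes, 25 had higher values in KO MET/CAT livers (median 0.30) and 3 were separate and higher (10.7% of the list, 6.82% of all genes). The separate and higher members were 11 (39.3%) without WT replicate 1, 9 (32.1%) without KO replicate 1 and 6 (21.4%) without KO replicate 3, beside 18.1%, 12.6% and 11.1% of all genes. They were 5 (17.9%, beside 9.55% of all genes) without WT replicate 2. Without WT replicate 3 and without KO replicate 2 they were 4 (14.3%, beside 10.97% and 10.4%). Gmnn had 96.7, 47.5 and 60.0 normalized reads in WT and 138.5, 132.9 and 225.0 in KO MET/CAT libraries (1.29, SE 0.34). Orc6, of the complex that marks replication origins, had 77.7, 32.7 and 51.1 in WT and 102.4, 100.4 and 105.1 in KO libraries (1.002, SE 0.37). Both genes were higher in every KO library. Mcm10 differed by 1.24 and Rrm2, which makes deoxynucleotides, by 0.90, with KO replicate 2 highest in both. The list median was 0.16 without KO replicate 2, 0.19 without WT replicate 3, 0.45 without WT replicate 1 and 0.46 without KO replicate 1, and the mean deviation of KO replicate 1 (−0.66) lay within the WT range. The 29 measured mitosis and cell cycle genes had a median of −0.11, which edgeR and DESeq2 gave as 0.21. It was 0.11 without WT replicate 3, 0.059 without KO replicate 3, 0.23 without KO replicate 1, −0.31 without WT replicate 2 and −0.66 without KO replicate 2. In that last setting 20 of 29 were lower and 9 separate and lower (31.0%, beside 10.02% of all genes). With any other library left out, 1 to 3 were separate and lower (3.45% to 10.3%, beside 10.08% to 15.8% of all genes). In GFP livers the median was 1.005 for the mitosis and cell cycle genes and 0.78 for the replication genes (24 of 28 higher). Without KO GFP replicate 3 these medians were 0.72 and 0.47.

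Liver genes that differ between the sexes under growth hormone control had their most distant level in KO replicate 2. The 25 measured male-biased genes had a median of 0.59 (22 higher, 0 separate), and the 21 measured female-biased genes a median of −0.45 (17 lower, 2 or 9.52% separate and lower, beside 7.01% of all genes). Without KO replicate 2 the medians were 0.10 and 0.02. The male-biased median was 0.97 without KO replicate 3, where 13 were separate and higher (52%, beside 11.1% of all genes). With any other library left out, 0 to 5 were (0% to 20%, beside 9.55% to 18.1% of all genes). The female-biased median was −0.78 without KO replicate 1, where 5 were separate and lower (23.8%, beside 13.9%). With any other library left out, 2 or 3 were (9.52% or 14.3%, beside 10.02% to 15.8% of all genes). The male-biased genes had a mean deviation of 0.97 in KO replicate 2, −0.37 in KO replicate 1, −0.74 in KO replicate 3 and −1.04 to −0.47 in WT. Cyp4a12a, a male-specific P450, had 70.8, 6.3 and 53.4 normalized reads in WT and 93.9, 672.7 and 23.3 in KO libraries. Sult2a1, a female-biased sulfotransferase, had 7805, 3123 and 1190 in WT and 812.8, 17.8 and 1412 in KO libraries. Xist was present at 877.9 to 2006 in all 6 libraries, while 4 Y-linked genes did not exceed 6.33.

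Cyp2a4, a female-biased P450, did not follow KO replicate 2. It had 10112, 14026 and 21412 normalized reads in WT and 32437, 29584 and 26235 in KO MET/CAT libraries (1.02, SE 0.31), with separate groups. Cyp17a1, a steroid hydroxylase, had 1848, 1156 and 868.3 in WT and 462.4, 256.3 and 685.7 in KO libraries (−1.50, SE 0.52), also separate.

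Markers of the liver cell types named here had median differences from −0.11 to 0.45, and none of their genes was called. Leaving out 1 library changed the sign of some medians, which ran from −0.36 to 0.40 for T and NK cells, −0.047 to 0.31 for B cells, −0.064 to 0.33 for endothelial cells, −0.18 to 0.18 for macrophages and monocytes and −0.16 to 0.086 for secreted proteins. They ran from 0.018 to 0.35 for Kupffer cells and from 0.19 to 0.49 for cholangiocytes and progenitors. Hepatocyte transcription factors (18 measured) had a median of −0.10 and hepatocyte secreted proteins (22) of −0.04. Medians were 0.08 for Kupffer cells (13 of 14 measured), −0.05 for macrophages and monocytes (22 of 22), −0.11 for T and NK cells (15 of 21) and 0.27 for B cells (11 of 14). They were 0.22 for endothelial cells (21 of 21), 0.19 for stellate cells (14 of 14) and 0.45 for cholangiocytes and progenitors (12 of 14). Kupffer markers had mean deviations from 0.17 to 0.36 in the WT libraries and from 0.19 to 0.63 in the KO libraries, and the groups overlapped. Clec4f, a Kupffer cell lectin, had 2569, 1956 and 1294 normalized reads in WT and 1705, 1480 and 2038 in KO libraries (−0.11, SE 0.38). In GFP livers the Kupffer list had a median of −1.46, and 9 of 13 members had an unadjusted interaction p under 0.05 (15.5% of all genes). Kupffer deviations were −0.43, −0.54 and −2.07 in KO GFP libraries, and without KO GFP replicate 3 the median was −0.89 with 8 members (9.91% of all genes). Among the MET/CAT libraries, T and NK cell markers had their highest mean deviation in WT replicate 2 (0.80). The other WT livers were at −0.44 and −0.23, and the KO livers at 0.38, −0.32 and −0.090. By summed level KO replicate 1 (410.6) was just above WT replicate 2 (403.9). WT replicate 2 also had the highest mean deviation of interferon response genes among the MET/CAT libraries. The part of T and NK cells in that result was not tested.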

How the data were processed

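RNA from whole mouse liver was sequenced in 12 libraries, and the 6 MET/CAT libraries were compared. The submitters' processing notes name GRCm38, HTSeq 0.11.2 and HISAT2 2.0.4. The sources used here do not give the kit, the strand setting or the normalization tool. The authors deposited a signal per gene, which was whole reads times 1 factor per library, and dividing by it gave back whole reads (100% of values, 18208879 to 24352961 reads per library over the 12). Gene symbols were matched to GENCODE M21 (47114 of 47263).

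limma 3.58.1 (R 4.3.3) with a mean-variance trend was fitted to log2(value + 1) over all 12 libraries with 4 group means, and p-values were adjusted by Benjamini-Hochberg over 13871 genes with a value of at least 10 in 3 libraries. A call needed an adjusted p under 0.05. edgeR 4.0.16 (quasi-likelihood) and DESeq2 1.42.0 on recovered reads, other filters, pseudocounts and scalings, a block and left-out libraries were alternatives. On simulated data with 13871 genes for this comparison, 18% of 100 genes changed by 1 log2 unit and 86% of 100 changed by 2 were recovered, with 11 unchanged genes called. Counting error makes low levels less precise, and the replicates of each group differed by more than counting error.

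The 63 gene lists were described by counts and medians with no test. The comparison and the lists were chosen with earlier results of these data known. Named were Sirt2, Met, Ctnnb1, Glul and Axin2, called genes, the 12 higher and 12 lower genes with the smallest p among those with a mean of at least 100 and no overlap, key members of each list with up to 6 others of smallest p, and genes within 200 kb of Sirt2. Other names given (Cxcl10, Irf1, Mavs, Gbp7, Gbp8 and any further list member) were partly chosen after their values were seen. Promoters came from RefSeq (GRCm38.p6). Figures used Python 3.11.15 and matplotlib 3.10.9. Some items withheld for evaluation are not reported here.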

Additional observations from a re-analysis of the deposited data

How the results depend on the processing

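Over the 6 fits leaving out 1 library each, limma called 0 to 3 genes higher and 0 to 9 lower. Leaving out WT MET/CAT replicate 1 gave 3 and 9, WT MET/CAT replicate 3 gave 3 and 5, and KO MET/CAT replicate 3 gave 0 and 0, where 1136 genes had an unadjusted p under 0.05. DESeq2 called 8 higher and 26 lower, and library quality weights 2 lower. Sirt2 ranged from −2.16 to −2.005 over the same 6 fits and missed the threshold without KO MET/CAT replicate 3 (−2.005, adjusted p = 0.0524). Replicate numbers did not pair the samples (correlations of same-numbered deviations −0.146, −0.195 and −0.0322). With the replicate block limma still called 1 gene between KO and WT, and 2 genes by the interaction in place of 0, as it did without KO GFP replicate 3.

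Met was 0.0111 with the length trend removed, 0.0812 when KO MET/CAT replicate 2 was left out and 0.109 when WT MET/CAT replicate 2 was. Leaving out KO MET/CAT replicate 2 gave 0.0289 for Ctnnb1 and −0.0293 for Glul, and leaving out WT MET/CAT replicate 2 gave −0.0213 for Glul. Over the 6 fits leaving out 1 library each, Met ranged from −0.199 to 0.109, Ctnnb1 from −0.494 to 0.0289 and Glul from −0.0293 to 0.552. The immediate early median was 0.266 without KO MET/CAT replicate 1, and 0.266 to 1.26 over the left-out libraries. The cause of these shifts was not tested. Of 540 values of the 27 genes other than Sirt2 named by fixed name or smallest p, under 20 settings, 518 kept direction and side of the threshold, 16 newly passed it and 6 changed sign. All 27 but Met, Ctnnb1, Glul and Axin2 were chosen for separate groups and a small p in these data. Leaving out a library could not change the sign of a gene so chosen, so these counts do not measure robustness. The 6 changes of sign are those of Met, Ctnnb1 and Glul given above. With 3 libraries a group, the exact permutation test cannot go below 0.1. Equal library totals moved the median of all genes by the most, to 0.0613. KO GFP replicate 3, which stood apart from the other 11 libraries, was left out in a fit chosen after seeing the data, with no change in the number of calls between KO and WT MET/CAT livers. The list counts without each library were also chosen then. The length correction used exon length per gene.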

Other observations

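A pair of closely related female-biased P450 genes were left out of the tests by the filter on low values and behaved as present or absent. Cyp2b9 had 8586 and 6216 normalized reads in WT MET/CAT replicates 1 and 2. It was listed at 0 in WT MET/CAT replicate 3 and in all 3 KO MET/CAT libraries, and did not exceed 0.866 in the GFP libraries. Cyp2b13 had 6738 and 2727 in the same 2 libraries and was listed at 0 in the other 10. Cyp2b10, a relative induced by drugs and measured throughout, had 1830 and 716.0 there, 175.7 in WT MET/CAT replicate 3 and 149.3 to 279.3 in the KO MET/CAT libraries. The 3 genes are similar in sequence and may share reads. The difference lies between WT replicates and was not tested against genotype.

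Cxcl1, a chemokine that attracts neutrophils, had 416.6, 207.7 and 26.7 normalized reads in WT and 2796, 576.5 and 868.3 in KO MET/CAT libraries. All 3 KO libraries were above the WT libraries, with a difference of 3.06 (limma adjusted p = 0.496), and the gene was singled out after its values were seen.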
